A study of Caenorhabditis elegans with 4 samples.

Results

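The central domain of chromosome V of Caenorhabditis elegans held 2484 of the 11110 binding regions in the combined list of a chromatin immunoprecipitation and sequencing (ChIP-seq) experiment labelled NHR-129. Members were the combined regions on V whose midpoint lay from 5.9 Mb to below 16.55 Mb in WormBase WS220 coordinates, a stretch of 10.65 Mb in which recombination is rare. The rule used position only. The arms of V, taken as the 5.9 Mb to its left and the 4.37 Mb to its right up to the last peak, held 2214 regions, 1230 in the left arm and 984 in the right arm. The other chromosomes held 6412.

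The study mapped binding of NHR-129 in hermaphrodites at the L2 larval stage, grown at 20 °C and crosslinked with 2% formaldehyde. All 4 samples came from strain OP339, with the genotype unc119(ed3) and the transgene wgIs339, which carries nhr-129 fused to TY1, EGFP and FLAG together with an unc119 copy. The 2 ChIP samples were precipitated with antibodies against GFP, and the 2 Input samples, total chromatin of the same strain, were numbered alike. The construct was introduced by bombardment, and the fusion protein is described in seam cells, pharynx and head neurons, while the chromatin came from whole animals. Whether each replicate was its own culture is not stated, so the spread between replicates may be technical.

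NHR-129 belongs to the nuclear hormone receptors, transcription factors that bind DNA through a zinc finger domain and, in many members, change activity with a small lipophilic ligand. This family is much enlarged in C. elegans compared with mammals or flies. Worm chromosomes have a gene-rich centre with little recombination, where widely conserved genes concentrate, and arms that recombine more and hold more repeats and fast-changing gene families.

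Each list gives the position of a peak and a q-value from PeakSeq, a program that compares ChIP reads with scaled control reads. No list gives read counts, summits or enrichment, so the sequencing depth is unknown, and deeper libraries can yield longer lists. Input peak lists were not analysed here. Every one of the 6470 peak lines of the V centre, over the 3 lists, was named GEI-11, which is a different protein from the labelled one, and 0 carried NHR. All 25802 peak lines of the 3 whole lists, over all chromosomes, likewise carried the name GEI-11. The origin of this name was not tested, and the ChIP is called by its label, NHR-129, throughout. With 2 ChIP samples, an exact two-sided sign-flip test over samples cannot give a p below 0.5. No p-value is given, and each difference is read against both replicate lists and against a 95% interval (Wilson for a share, Newcombe for a difference of shares). These intervals cover counting error only and treat neighbouring regions as independent. No gene or sequence is assigned to the regions, because no WS220 genome or annotation was used here.

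Regions of the V centre were found in both replicates more often than regions of the arms. Overlap with a replicate peak by at least 1 bp counted as found. Of the 2484 members, 1397 were found in both replicates, or 56.2% (54.3 to 58.2%), against 48.5% of all regions of the list. In the arms the share was 40.2% (38.2 to 42.3%), a difference of 16.0 percentage points (13.2 to 18.8). The left arm had 47.4% (44.6 to 50.2%) and the right arm 31.3% (28.5 to 34.3%), so both arms lay below the centre, the right arm further. Measured against 1 replicate at a time, the centre exceeded the arms by 13.7 points for replicate 1 and by 11.1 points for replicate 2. Within the strongest 50% of each list, the difference in regions found in both was smaller, at 7.53 points (3.62 to 11.40).

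The remaining members divided unequally. Replicate 1 alone supported 469 members, or 18.9% (17.4 to 20.5%), where all regions of the list gave 14.8%. Replicate 2 alone supported 242, or 9.74% (8.64 to 10.97%), with 9.75% in the whole list. Neither replicate contained the other 376, or 15.1% (13.8 to 16.6%), with 26.9% in the whole list. In the arms, 21.2% were found only in replicate 1, 14.7% only in replicate 2 and 23.9% in neither. The share found in neither was thus lower in the centre than in the arms, by a difference of -8.76 points (-11.03 to -6.49).

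Members found in both replicates were wide and strong, and members found in neither were mostly slivers. The median width was 378 bp (quartiles 266 to 577 bp) for members found in both, 131 bp for those found only in replicate 1, 118 bp for those found only in replicate 2 and 34 bp (10 to 78.3 bp) for those found in neither. Their median -log10 q-values in the combined list were 24.7, 8.16, 7.36 and 6.08 in the same order. Of the 376 members found in neither, 310 were under 100 bp wide and 98 were 10 bp or shorter. The arms had the same order of widths, with medians of 351, 135, 114 and 46 bp. Of the 529 arm regions found in neither, 430 were under 100 bp and 107 were 10 bp or shorter. In the whole list these counts were 972 and 260 of 2994. Members found in neither did not lie far from replicate peaks. Their median distance to the nearest peak of either replicate was 992 bp, and 26.6% had one within 500 bp. In the arms that median distance was 1299 bp, with 22.3% within 500 bp.

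At equal strength the order of centre and arms turned round. Strength is taken here as the -log10 q-value in the combined list, which was not independent of the replicates and serves only to class regions within that list. Among members with a -log10 q-value from 5 to 10, 90 of 814 were found in both replicates, or 11.1% (9.08 to 13.4%). The arms had 186 of 885, or 21.02% (18.5 to 23.8%), and the other chromosomes 743 of 1478, or 50.3% (47.7 to 52.8%). From 10 to 20 the shares were 71.1% (67.6 to 74.4%) in the centre, 82.7% (78.6 to 86.1%) in the arms and 97.3% (96.2 to 98.1%) on the other chromosomes. The centre lay below the arms in both classes, by differences of -9.96 points (-13.4 to -6.50) and -11.6 points (-16.5 to -6.37). Each arm on its own lay above the centre in both classes. From 20 to 40 the centre had 98.8% and the arms 98.97%, a difference of -0.183 points with an interval from -1.94 to 2.56. All 420 members at 40 or more were found in both replicates, as were all 184 such regions of the arms. The members were spread over these classes differently from the arm regions, as the next counts show.

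**Figure D1:**
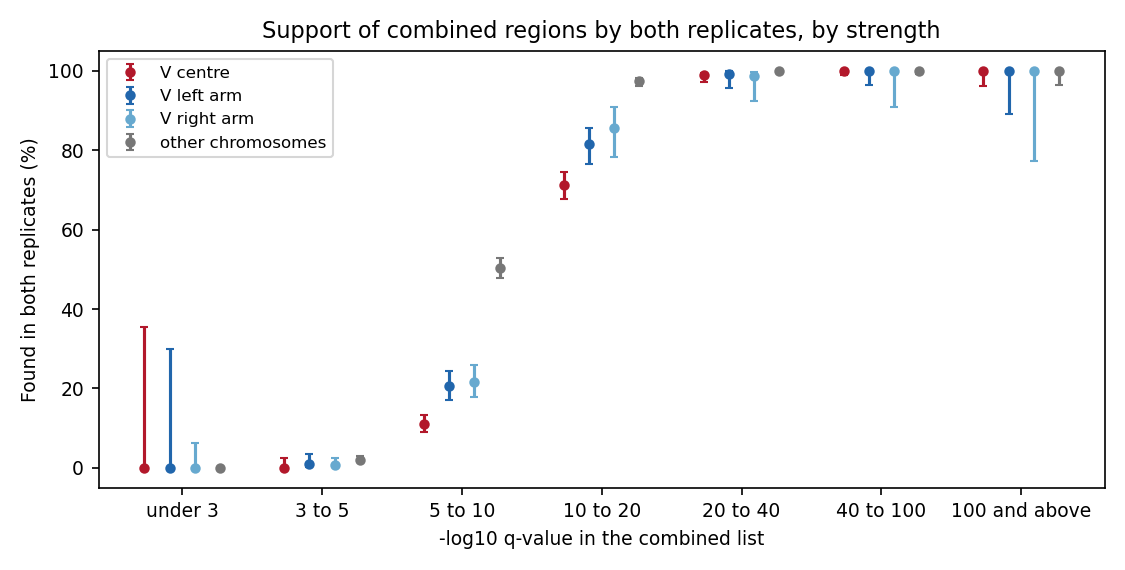
Share of combined regions found in both replicates (percent, with 95% Wilson intervals) in 7 classes of the -log10 q-value, for the V centre, the V arms and the other chromosomes. Between 5 and 20 the V centre lies below the other groups, at 11.1% and 71.1%, and from 20 upwards the groups meet near 100%.

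Strong regions were denser in the centre than in either arm, while the total number per Mb in the combined list differed little between the centre and the pooled arms. The combined list had 233 regions per Mb in the centre and 216 in the arms, a ratio of 1.08. Of the members, 420 had a -log10 q-value of 40 or more, or 16.9% (15.5 to 18.4%), where the whole list gave 9.99%. In the arms the share was 8.31% (7.23 to 9.53%). These strong regions numbered 39.4 per Mb in the centre, 22.5 per Mb in the left arm and 11.7 per Mb in the right arm. The ratio of centre to arms was 2.20 for them in the combined list. In the replicate lists, on their own scales, the ratios at 40 or more were 2.31 in replicate 1 and 2.02 in replicate 2 against both arms, and 1.86 and 1.57 against the left arm alone. As a share of peaks, the centre exceeded the left arm by 2.48 points in replicate 1 (0.429 to 4.32) and by 1.78 points in replicate 2, where the interval of -0.182 to 3.56 included 0. At 100 or more, the combined list held 93 members, or 3.74% of them, against 2.17% of all regions, and the ratio of centre to arms was 2.04. The replicate lists had 36 and 22 peaks of that strength in the centre and 19 and 15 in the arms. Against the left arm alone, the density ratios were 1.33 in replicate 1 and 1.11 in replicate 2. As a share of peaks, centre and left arm were then nearly equal. The centre had 1.71% in replicate 1 and 1.17% in replicate 2, and the left arm 1.68% and 1.23%. The right arm had 0.624% and 0.743%.

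Weak regions followed the opposite course. Only 163 members, or 6.56% (5.65 to 7.60%), had a -log10 q-value under 5, where the whole list gave 29.7%. The arms had 25.2% (23.4 to 27.1%), made up of 17.1% in the left arm and 35.4% in the right arm, and the other chromosomes had 40.2%. Only 7 members lay under 3, or 0.282%, against 67 regions in the arms and 1284 on the other chromosomes. Of the 67, 9 lay in the left arm (0.732%) and 58 in the right arm (5.89%). The list as a whole ended at a q-value of 0.01, so its weak end was nearly empty in the V centre and in the left arm. This was limited to the combined list. In replicates 1 and 2, peaks under 3 made up 5.35% and 4.91% in the centre and 15.3% and 12.8% in the left arm. In replicate 1, peaks under 5 made up 30.5% in the centre and 54.6% in the arms, and in replicate 2 they made up 31.7% and 56.0%. The median -log10 q-value in the combined list was 12.5 in the centre, 8.44 in the left arm and 6.11 in the right arm. In replicate 1 these medians were 7.58, 5.14 and 3.79, and in replicate 2 they were 7.18, 4.91 and 3.90. The order of the centre, the left arm and the right arm was the same in the 3 lists.

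**Figure D2:**
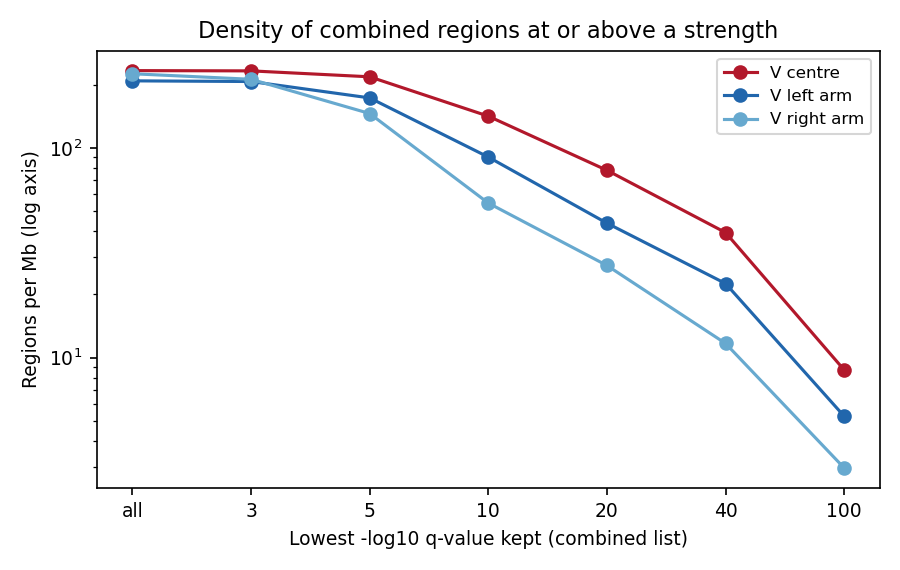
Combined regions per Mb (log axis) that remain when regions below a given -log10 q-value are left out, for the V centre, the left arm and the right arm. With all regions kept the lines lie close together, at 233, 208 and 225 per Mb, and at 40 or more they stand at 39.4, 22.5 and 11.7 per Mb.

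The ratio of centre to arms in total density depended on the list. Replicate 1 had 198 peaks per Mb in the centre and 150 in the arms, a ratio of 1.32, and replicate 2 had 176 and 139, a ratio of 1.26. Among combined regions found in both replicates the values were 131 and 86.8 per Mb, a ratio of 1.51, and in the strongest 50% of the combined list the ratio was 1.73. In 1-Mb bins, members found in both replicates numbered 128.96 ± 29.5 per Mb in the centre (SD, 11 bins) and 85.5 ± 26.2 in the arms (SD, 10 bins). The bins overlapped in range, from 61.5 to 168 per Mb in the centre and from 41 to 119 in the arms, and they are stretches of the same samples rather than replicates. Combined regions covered 7.56% of the centre, 5.43% of the left arm and 5.05% of the right arm.

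Members were narrow. Their median width was 230 bp (quartiles 110 to 420 bp), against 171 bp in the arms (73.3 to 319 bp) and 452 bp on the other chromosomes (319 to 701 bp). The replicate lists gave 224 bp and 221 bp in the centre, and 181 bp and 163 bp in the arms. Members of 500 bp or more numbered 464, or 18.7% (17.2 to 20.3%), where the whole list gave 31%, and arm regions of that width made up 10.4% (9.23 to 11.8%). Members under 100 bp numbered 559, or 22.5% (20.9 to 24.2%), where the whole list gave 14.1%, and such regions made up 33.0% of the arms and 4.38% of the other chromosomes. There were 128 members of 10 bp or less, or 5.15%, with 3.06% in the whole list, and 0 of them were found in both replicates, with a 95% upper bound of 2.91%. The same held elsewhere: 0 of 151 such regions of the arms and 0 of 61 on the other chromosomes were found in both. The wider median of the centre did not hold in the strongest 50% of the combined list, where members were narrower than arm regions, with a width ratio of 0.941. With peaks of 100 bp or more the ratio was 1.22, and with the centre narrowed by 0.5 Mb at each limit it was 1.35.

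At equal strength, members were narrower than regions of either arm in the classes between 3 and 20. Under 3, the 7 members had a median of 21 bp, against 5 bp for 9 regions of the left arm and 36.5 bp for 58 of the right arm. From 5 to 10 the median width was 101 bp in the centre, 139 bp in the arms and 432 bp on the other chromosomes. From 10 to 20 it was 245 bp in the centre, 297 bp in the arms and 532 bp on the other chromosomes. Above 20 the medians of the centre and the pooled arms were closer, with ratios of centre to arms of 0.931 from 20 to 40, 1.06 from 40 to 100 and 0.982 at 100 and above. Members stayed narrower than regions of the other chromosomes in all 7 classes, and at 100 and above the medians were 1252 bp and 2589 bp. Width and strength went together among members found in both replicates, with a Spearman's rho of 0.870 over 1397 members. The arms were close to this, with 0.858 over 583 regions of the left arm and 0.822 over 308 of the right arm. The other chromosomes had 0.547 over 3098 regions. These values are descriptions across regions of the same lists.

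**Figure D3:**
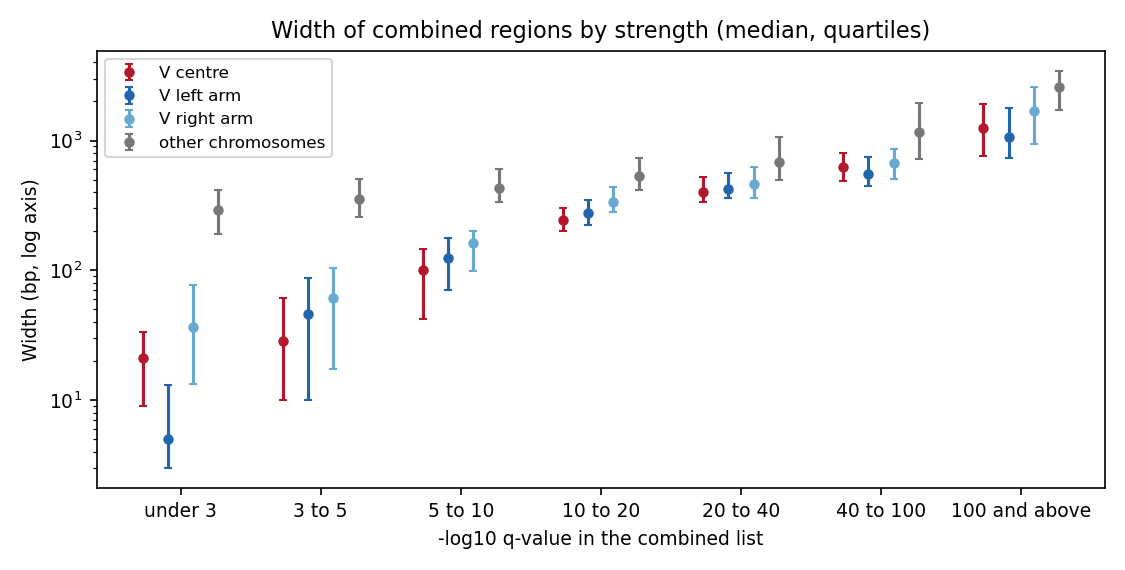
Median width (bp, log axis, bars to the quartiles) of combined regions in 7 classes of the -log10 q-value for the V centre, the V arms and the other chromosomes. Members rise from 101 bp between 5 and 10 to 1252 bp at 100 and above and stay below the other chromosomes throughout.

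Between the replicates, peaks of the centre were shared more often than peaks of the arms and less often than peaks of the other chromosomes. Of 2111 replicate 1 peaks in the centre, 1417 overlapped a replicate 2 peak, or 67.1% (65.1 to 69.1%), where all replicate 1 peaks gave 71.7%. The arms had 55.2% (52.7 to 57.7%) and the other chromosomes 80.6% (79.4 to 81.8%). Of 1875 replicate 2 peaks in the centre, 1444 overlapped a replicate 1 peak, or 77.0% (75.1 to 78.9%), where all replicate 2 peaks gave 77.6%. Here the arms had 59.7% (57.2 to 62.3%) and the other chromosomes 84.6% (83.4 to 85.7%). The differences from the arms were 11.9 points (8.72 to 15.1) and 17.3 points (14.1 to 20.4). Within the strongest 50% of each list these differences were 0.0370 points (-3.90 to 4.16) and 3.01 points (-0.491 to 6.75), so the intervals then included 0.

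Where both replicates had a peak, its place matched closely. Of the 1397 members found in both, 1268 held exactly 1 peak of each replicate. The midpoints of these replicate peaks lay a median of 28 bp apart, and 90% lay within 106 bp. In 61 of the 1268 members the peaks of the replicates overlapped the same combined region without touching each other. The arms had 70 such regions of 826, and the other chromosomes 13 of 2925. The other 9.23% of the 1397 were split into 2 or more peaks in at least 1 replicate, where the whole list gave 6.81%. The right arm had a like share, 9.42%, and the left arm 6.17%. The split members of the centre had a median width of 1019 bp. Replicate strengths ranked alike over the 1397 members (Spearman's rho of 0.875, a description across regions of shared libraries). The median -log10 q-value was 11.8 in replicate 1 and 9.65 in replicate 2, and 1013 members, or 72.5%, had the stronger peak in replicate 1. That share was 64.4% in the arms and 61.9% on the other chromosomes. The combined value lay above both replicate values in 1393 of the 1397, or 99.7%. This was so in nearly all regions found in both elsewhere, 99.8% in the arms and 99.3% on the other chromosomes.

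In 1-Mb windows along the domain, density and support varied and were lowest at the right end. In the 10 full 1-Mb windows, the combined list held between 200 and 264 regions and the share found in both replicates ran from 50.7% to 63.6%. Replicate 1 had between 155 and 256 peaks in these windows and replicate 2 between 142 and 209, with variances of 3.77 and 2.54 times the mean. The highest of these shares, 168 of 264 regions, lay between 11.9 and 12.9 Mb. The last stretch, from 15.9 to 16.55 Mb, held 120 regions, of which 40 were found in both replicates, or 33.3%. Its median -log10 q-value was 6.70, while the other windows ran from 8.74 to 16.0. Replicate 1 had 106 peaks per Mb there and replicate 2 had 112, below the lowest full windows of the same lists, which held 155 and 142.

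The limits of the domain did not coincide with a step in the peaks. At the left limit, the 0.5 Mb inside held 106 combined regions, 63 of them found in both replicates (59.4%, 49.9 to 68.3%), and the 0.5 Mb outside held 111 and 67 (60.4%, 51.1 to 69.0%). At the right limit, the 0.5 Mb inside held 94 regions with 29 found in both (30.9%, 22.4 to 40.8%), and the 0.5 Mb outside held 90 with 24 (26.7%, 18.6 to 36.6%). The intervals of each pair overlap. Nearest the left limit, the first member was V 5917598 to 5918052 (combined q-value 1.30e-41) and the region just outside was V 5891246 to 5891500 (9.48e-13), each found in both replicates. Nearest the right limit, the last member was V 16543835 to 16543960 (2.32e-09), found only in replicate 1, and the region just outside was V 16563594 to 16563658 (1.32e-05), found in neither. With the domain narrowed by 0.5 Mb at each limit, the difference in support was 16.4 points.

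**Figure D4:**
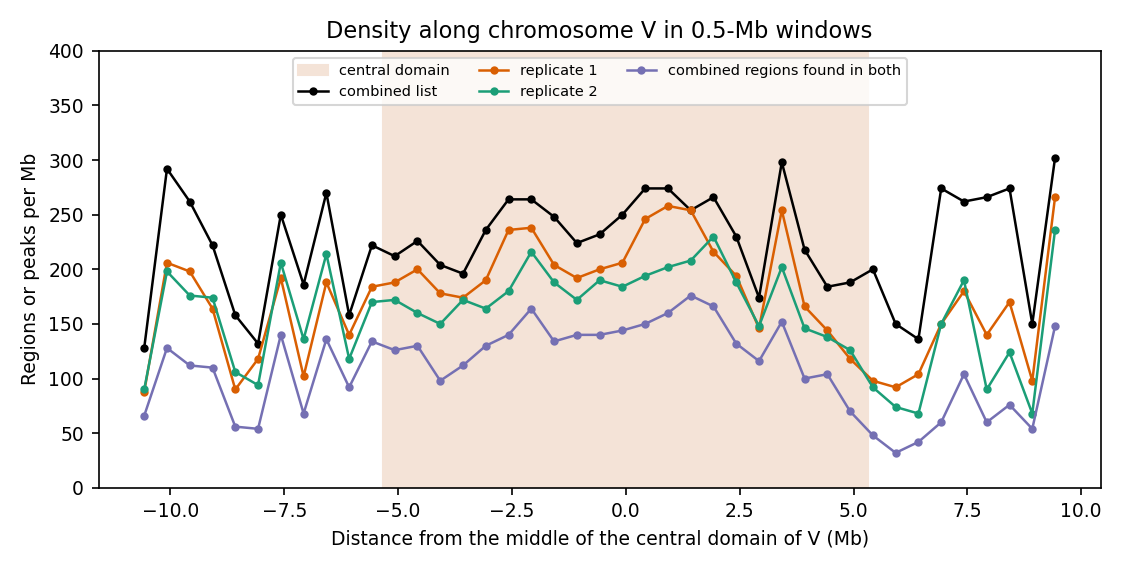
Peaks or regions per Mb in 0.5-Mb windows along V, against the distance in Mb from the middle of the central domain (shaded), for the combined list, each replicate list and combined regions found in both replicates. The combined line stays between 174 and 298 per Mb within the domain, and the line of regions found in both replicates declines towards the right limit without a break at either limit.

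At a finer scale the replicates rose and fell together. Over 106 windows of 0.1 Mb, the counts of both replicates had a Pearson's r of 0.878 and a Spearman's rho of 0.869, a description of neighbouring windows in which gene density and mappability are shared. The combined list held between 4 and 44 regions per window, with a median of 22, and no window of this size was empty in any list. The fullest window, from 12.5 to 12.6 Mb, held 44 combined regions, 48 replicate 1 peaks and 38 replicate 2 peaks, and 33 of the 44 were found in both. The emptiest, from 7.6 to 7.7 Mb, held 4, 5 and 3. In 0.5-Mb windows the fullest lay between 14.4 and 14.9 Mb with 149 combined regions, and it was directly preceded by the emptiest, between 13.9 and 14.4 Mb, with 87.

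Members were more closely spaced than regions of the arms, and the longest bare stretch lay at the same place in the 3 lists. The median gap between neighbouring members was 1504 bp (quartiles 651 to 4280 bp), and it was 1898 bp in the left arm and 2004 bp in the right arm. Gaps of 1000 bp or less made up 38.3% in the centre, 30.9% in the left arm and 30.5% in the right arm. When members up to 1000 bp apart were joined, they formed 1534 runs, of which 1044 were single regions and 54 held 5 or more. The longest runs held 14 members each: V 6349624 to 6361151, with 7 of them found in both replicates, and V 10464744 to 10478326, with 10. The second of these runs contains the strongest member. The left arm had 850 runs, of which 626 were single regions and 21 held 5 or more, and its longest held 11. In the right arm these numbers were 684, 507 and 11, and its longest run, with 16 regions, exceeded those of the centre. The longest bare stretch of the combined list was 105.6 kb, from 8808946 to 8914550. Replicate 1 had no peak from 8809052 to 8914655 and replicate 2 none from 8806613 to 8914575, which were also their longest gaps. Other long gaps were not all shared: replicate 2 had no peak from 15199162 to 15286057, while the window from 15.2 to 15.3 Mb held 7 combined regions and 4 replicate 1 peaks. The cause of the bare stretches, for example sequence in which reads cannot be placed, was not tested.

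The strongest members with a good rank in both replicates were spread over the domain. Ranks count the q-values within the V centre of each list. In replicate 1, V 10466315 to 10467587, 1273 bp wide, had a q-value of 1.54e-213 and rank 12. Its replicate 2 q-value was 6.33e-177 (rank 9), and the combined one was 1.92e-291 (rank 1). V 9545954 to 9547856 had 4.81e-139 (rank 20) in replicate 1 and 3.16e-132 (rank 14) in replicate 2, while its combined q-value was 3.89e-220 (rank 14). V 16394846 to 16395611 had 1.12e-138, 2.54e-124 and 7.46e-178 in the same order. It lay in the sparse right end of the domain and was 766 bp wide. The members next in mean rank were of like width, V 13909222 to 13909959 (738 bp) and V 14199889 to 14200601 (713 bp), with combined q-values of 1.06e-181 and 2.82e-202.

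Among the 10 members with the best mean rank, the replicates differed most over V 10937331 to 10939460. Its smallest q-value was 3.17e-198 in replicate 1, where it was 1 peak, and 4.12e-90 in replicate 2, where it was 3 peaks. V 10535307 to 10537223 had 7.39e-153 in replicate 1, as 1 peak, and 1.42e-93 in replicate 2, as 2 peaks. In both members the smallest q-value was lower in replicate 1, where the member was not split. In V 6098649 to 6101889, with 2 peaks in each replicate, it was lower in replicate 2, with 4.91e-122 against 5.42e-111 in replicate 1. The q-values of each list are on their own scale. The last of the 10 were V 7853399 to 7856087 and V 8935915 to 8938697, with combined q-values of 1.12e-225 and 2.14e-239.

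The 5 widest members each held 2 or more peaks of at least 1 replicate. V 12811181 to 12815038, the widest at 3858 bp, held 3 peaks of replicate 1 (smallest q-value 9.41e-95) and 4 of replicate 2 (5.25e-98), and its combined q-value was 7.45e-291. V 7803506 to 7807160, at 3655 bp, held 3 peaks in each replicate, with smallest q-values of 8.93e-101 and 6.64e-104. The next 3 were V 6098649 to 6101889 (3241 bp), V 9074245 to 9077206 (2962 bp) and V 9787885 to 9790837 (2953 bp). Of these, V 9074245 to 9077206 held 1 peak of replicate 1 and 2 of replicate 2.

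Among members found in 1 replicate only, the strongest still had small q-values in the combined list. V 8420757 to 8421666 held 2 peaks of replicate 1 (smallest q-value 2.63e-08) and had a combined q-value of 7.80e-28. V 13128607 to 13129542 held 2 peaks of replicate 2 (1.13e-07) and had a combined q-value of 5.13e-31. They were 910 and 936 bp wide, unlike most members found in 1 replicate. Next came V 14595837 to 14596342 and V 9847589 to 9847929 for replicate 1 (combined q-values 7.31e-22 and 8.11e-20), and V 10474973 to 10475475 and V 6887563 to 6888036 for replicate 2 (1.89e-24 and 2.41e-21). The strongest member found in neither replicate was V 11958816 to 11959162, 347 bp wide, at 2.29e-14 in the combined list. Next were V 6360952 to 6361151 (1.19e-13) and V 11372412 to 11372604 (3.17e-13).

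Not every replicate peak of the centre was represented in the combined list. Of the 2111 replicate 1 peaks, 154 had no overlapping combined region, or 7.30% (6.26 to 8.48%), where all replicate 1 peaks gave 4.23%. Of the 1875 replicate 2 peaks, 123 had none, or 6.56% (5.53 to 7.77%), where all replicate 2 peaks gave 4.71%. The arms had 8.85% and 11.5%. The difference from the arms was -1.56 points (-3.40 to 0.217) for replicate 1 and -4.97 points (-7.01 to -3.00) for replicate 2.

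These unrepresented peaks fell into 2 very different kinds. Most were weak, narrow and held by 1 replicate: 134 of the 154 replicate 1 peaks had no partner in replicate 2, with a median width of 24.5 bp and a median -log10 q-value of 3.71, and 99 of the 123 replicate 2 peaks had none in replicate 1, with medians of 24 bp and 3.91. The strongest of them were V 10670929 to 10671047 (3.63e-08), V 13705572 to 13705753 (4.26e-08) and V 6356809 to 6356830 (1.63e-07) in replicate 1. In replicate 2 they were V 6230570 to 6231099 (2.41e-20), V 6215862 to 6216023 (7.18e-09) and V 9782660 to 9782812 (5.81e-08). The first of these replicate 2 peaks, 530 bp wide, stood apart from the rest of its kind in width and strength. The second kind comprised 20 peaks of replicate 1 and 24 of replicate 2 that overlapped each other. These had median widths of 2342 bp and 1919 bp and median -log10 q-values of 218 and 135.

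Merged within 200 bp, peaks of both replicates made 1452 shared loci in the centre, and 19 of these had no combined region, or 1.31%, where the whole series gave 0.545%. They were among the strongest of all: ordered by the -log10 q-values of the replicates added together, 9 of the top 10 shared loci and 14 of the top 20 were absent, against 5 of the other 1432. The strongest was V 14685563 to 14689637, 4075 bp wide, with a q-value of 8.56e-282 in replicate 1 and one of 6.40e-287 in replicate 2. V 10940023 to 10941426 had 1.31e-288 and 5.01e-252, and V 11531720 to 11535026 had 4.10e-290 and 7.80e-240. The 9 loci of the centre with the largest sums were absent, and the largest sum of a locus with a combined region was 389, at the strongest member. Strong absent loci were not limited to the centre. The other chromosomes lacked 7 of 3137 shared loci, with sums up to 581, while loci with a combined region there reached 323. The right arm lacked 3 of 317 (0.946%), with sums up to 376, against 279 for loci with a combined region. The left arm lacked 1 of 594, with a sum of 303, below the 396 reached by its loci with a combined region.

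Combined regions lay close to the 19 absent loci of the centre on at least 1 side. The nearest was 211 to 1725 bp away, with a median of 408 bp, and for 16 of the 19 it lay within 1000 bp. The stretch without a combined region around each locus ran from 2660 bp to 43884 bp, and some loci shared a stretch. In the longest, around V 7727008 to 7730021, the next combined region lay 382 bp away on the right and 40488 bp away on the left. Around V 15566344 to 15570148 (q-values 2.58e-257 and 1.71e-236) a combined region began 222 bp away on each side, with -log10 q-values of 6.09 and 6.08. Beside V 10940023 to 10941426, a combined region ended 562 bp to the left, and this was the member V 10937331 to 10939460 described above. The next absent loci by strength were V 9730711 to 9732272, V 9342868 to 9344867, V 6514882 to 6517777 and V 13787489 to 13791084, with replicate 1 q-values of 9.45e-238, 4.87e-226, 1.46e-238 and 2.76e-262. V 11887703 to 11889989 and V 11818504 to 11823006 complete the 10 strongest, with replicate 1 q-values of 4.24e-217 and 1.76e-219. The 19 loci were 706 to 4503 bp wide and covered 49.03 kb. The counts of members of 40 or more, given above for the combined list, therefore leave out these loci. With peaks merged within 1000 bp, 1 shared locus was absent, because each of the 19 then joined peaks that a neighbouring combined region overlaps. The absent locus under that merging was another one, 388 bp wide, with a sum of 7.59.

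**Figure D5:**
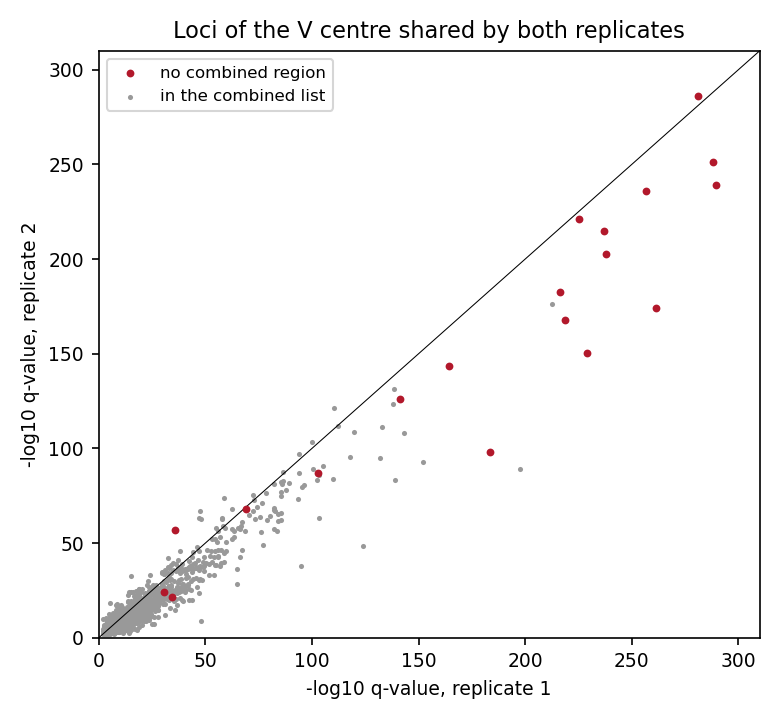
The -log10 q-value in replicate 1 against that in replicate 2 for the 1452 loci of the V centre shared by both replicates, with the line of equality. Of these, 19 loci without a combined region (red) take 9 of the 10 highest sums, and 1 grey point, the member with a sum of 389, lies among them.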

How the data were processed

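The series provided 3 peak lists: replicate 1, replicate 2 and a combined list. Per the file headers and columns, PeakSeq made the calls, in WS220 coordinates. The authors deposited a q-value, below 0.01 throughout, and the first and last base of every peak. One replicate 2 peak on another chromosome stands in a comment line and was not used. What made the combined list, like the aligner and the control reads, is not given in the sources used here. ChIP and Input samples were grouped by their titles.

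Peaks were placed by midpoint and compared with Python 3.11.15, NumPy 2.4.6 and pandas 2.3.3, and plotted with Matplotlib 3.10.9. Overlap and interval code was tested on simulated peaks. Densities used 10.65 Mb for the centre and 10.3 Mb for the arms, and 1-Mb bins of at least 0.5 Mb scaled to their length. Depth is unknown, so intervals cover counting error only. Regions were named by a rule: the 10 best by average q-value rank over the replicates, the 5 widest, the 3 strongest per other support class, those beside each limit, the 10 strongest absent loci, the 3 strongest peaks of each replicate alone and the fullest and emptiest windows. The longest runs and gaps and the 0.1-Mb windows were named after their values were seen. The members, this rule and all comparisons were chosen with earlier results of these data known. Alternatives covered the overlap rule, strength, width, the limits, merging and each replicate list.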

Additional observations from a re-analysis of the deposited data

Results flagged for a closer look

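In data outside the positions and q-values, all 6470 peak lines of the V centre carried the name GEI-11, while the labels name NHR-129. Input peak lists were not analysed here, and the origin of the name was not tested.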

How the results depend on the processing

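For 7 results, 33 alternatives were computed. In 19 of them neither the direction nor the call changed, or the value moved by less than the replicates differ. All were planned except the density of combined regions with a -log10 q-value of 5 or more, which was chosen after seeing the data. The support difference of 16.0 points stayed above 0 in its alternatives, was lowest at 7.53 points (3.62 to 11.40) in the strongest 50% of each list, and ran from 11.1 to 13.7 points with 1 replicate left out. In the strongest 50% of each list, the sharing differences between centre and arms were 0.0370 and 3.01 points with intervals that included 0, the density ratio was 1.73 and the width ratio turned to 0.941, from 1.35. The density ratio of 1.08 moved by more than the spread between replicates to 1.25 with peaks of 100 bp or more, 1.51 for regions found in both replicates, 1.02 with regions merged within 500 bp, 1.35 at a -log10 q-value of 5 or more, and 1.26 to 1.32 in single replicate lists. The width ratio was 1.22 with peaks of 100 bp or more and 1.24 to 1.36 in single replicate lists. Replicate peaks without a combined region numbered 277, and 806 when midpoints had to lie within 100 bp, a stricter rule by construction. Absent shared loci numbered 19, and 1 with merging within 1000 bp. Apart from the cases explained by construction, the cause was not tested. No paired analysis was possible because ChIP and Input were not compared: every comparison is between stretches of the genome within 1 list, and none uses Input values. Unknown depth limits every count.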
